A study of Mus musculus with 72 samples.

Results

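The 10 genes described here encode the proteins that govern passage through the G1 phase of the cell cycle: the D-type cyclins Ccnd2 and Ccnd3, the E-type cyclins Ccne1 and Ccne2, the cyclin-dependent kinases Cdk2, Cdk4 and Cdk6, and the CDK inhibitors Cdkn1b, Cdkn2c and Cdkn2d. They were taken by symbol from the 55487 genes of the deposited count table, and all 10 were found. They were chosen as a family, with earlier results of these data known. All 10 passed the filter on low counts in every fit. On mm10, Cdk6 lies on chromosome 5, Ccnd2 and Cdkn1b lie on chromosome 6, Ccne1 on 7, Cdkn2d on 9, Cdk2 and Cdk4 on 10 and Ccnd3 on 17, while Ccne2 and Cdkn2c share chromosome 4.

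D-type cyclins are made in response to growth signals, bind CDK4 or CDK6, and start the phosphorylation of the retinoblastoma protein (RB). E-type cyclins then bind CDK2 and complete that step, which releases E2F transcription factors to switch on the genes of DNA replication. INK4 proteins such as those encoded by Cdkn2c (p18) and Cdkn2d (p19) bind CDK4 and CDK6 and keep D cyclins off them, while p27, encoded by Cdkn1b, binds assembled cyclin-CDK complexes. Naive T cells rest outside the cycle with much p27, and antigen with interleukin-2 brings them into it. Glutamine feeds nucleotide, amino acid and mitochondrial metabolism in cells that are about to divide.

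The study compared ways of limiting glutamine use in mouse OT-I CD8+ T cells, which carry a transgenic receptor for an ovalbumin peptide. RNA was sequenced in 52 libraries, in 13 groups of 4. The treated groups were cells given 1 µM CB-839, an inhibitor of glutaminase, cells given 1 µM DON (6-diazo-5-oxo-norleucine), a glutamine analog that blocks many glutamine-using enzymes, and cells in medium without glutamine, each taken at 4, 24 and 48 h. The reference was vehicle-treated cells at the same 3 times, and a further group was unstimulated. Every stimulated culture was of OT-I splenocytes whose red cells had been lysed, activated with 10 ng/mL SIINFEKL peptide and 100 IU/mL recombinant human IL-2. The protocols name DMSO as the vehicle of CB-839 and PBS as that of DON, but the labels give 1 vehicle group, so each treatment was set against the same vehicle libraries and the glutamine-free cells against vehicle in full medium. The labels do not say whether the replicates A to D were separate mice or cultures, so the p-values below measure the spread between these libraries, which may be technical.

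The libraries held 25626587 to 51005409 counts, with 22061 to 32295 genes detected. All 7 CD8+ T cell markers examined, among them Cd8a, Cd8b1 and Cd3e, were detected in every group. They summed to 0.517 to 0.539% of the counts of an unstimulated library and to 0.162 to 0.312% of those of a stimulated one. B cell markers summed to 0.149 to 0.176% of counts in unstimulated cells. They summed to 0.126 to 0.292% at 4 h, to 0.0264 to 0.0665% at 24 h and to 0.0404 to 0.0798% at 48 h. Among these stimulated libraries the B cell share was highest at 4 h in glutamine-free library C, which also had the highest share of myeloid markers, 0.0376% against 0.00224 to 0.0109% in vehicle at 4 h. Glutamine-free library C at 4 h and vehicle library C at 48 h stood apart from their replicates: the chi-square per degree of freedom between vehicle library C and the others at 48 h was 83.6 to 177, against at most 29.1 among the other 3. The results that turn on either library are given below with and without it.

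Levels are CPM, a gene's counts set against the size of its library, scaled by trimmed means (TMM) over all 52 libraries. Fold changes come from edgeR's quasi-likelihood test on the counts, fitted to the 16 libraries of a time point with their own scaling, with adjusted p-values (Benjamini-Hochberg over all genes tested) called under 0.05. Because of the separate scaling, the log2 ratio of the printed mean CPM minus the fitted log2 fold change had a median over the 10 genes of -0.07 for DON at 24 h and -0.11 at 48 h, and of -0.05 and -0.04 for glutamine-free cells at these times. In bulk RNA, fewer cells expressing a gene and less RNA per cell cannot be told apart.

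Glutamine removal and DON each moved most of the 10 genes at 24 and 48 h, as they did most of all genes tested, and CB-839 moved few of either. In glutamine-free cells, 2 genes rose and 1 fell at 4 h, when of all genes tested 16.2% rose and 21.4% fell. At 24 h 3 rose and 7 fell, where 30% rose and 28.9% fell of all genes, and at 48 h 5 rose and 5 fell, where 28% rose and 26.3% fell of all. In DON-treated cells, 1 gene rose and 6 fell at 24 h, where 28.1% rose and 29.9% fell of all genes, and 1 rose and 8 fell at 48 h, where 35.6% rose and 35.6% fell of all. With library totals as the scaling in place of trimmed means, 2 rose and 3 fell under DON at 24 h, and 1 rose and 6 fell at 48 h. Here and below, shares of all genes called come from the main edgeR fits, with trimmed means, no block and no library left out. Counts from other scalings, blocks or sets of libraries have no such share beside them. At 4 h edgeR called none of the 10 under DON, and 0% of all genes in either direction. Of the 10, 2 (Ccnd2 and Cdk6) had an unadjusted p under 0.05 there, and DESeq2 called none of the 10 and 18 genes in all. In CB-839-treated cells, 2 genes rose and 1 fell at 4 h, when 5.85% rose and 6.64% fell of all genes. At 24 h 1 fell and none rose (2.47% rose and 2.48% fell of all), and at 48 h 1 rose and 1 fell (8.5% rose and 6.73% fell of all), which is near the background. Same-lettered libraries deviated together in the CB-839 and DON comparisons at 4 h and the CB-839 comparison at 24 h. Fitted on the 8 libraries of each with the letter as a block, 5 genes were called under CB-839 at 4 h (Ccnd2 at 0.12 and Cdkn1b at 0.40 were added), 1 under DON at 4 h (Ccnd2 at -0.13) and 5 under CB-839 at 24 h (Ccnd3 at -0.16, Ccne2 at -0.16, Cdk2 at 0.10 and Cdkn1b at 0.16 were added). With the block and all 16 libraries of the time the counts were 3, 0 and 2. The shares of all genes given above are of the fits without a block, so these counts cannot be set against them. At 48 h without vehicle library C, CB-839 raised 1 gene and lowered 3. The median log2 fold change of the 10 genes was -0.74 in glutamine-free cells at 24 h and -0.02 at 48 h, and was -0.22 and -0.47 under DON at these times. The median over all genes tested was within 0.03 of 0 in these 4 comparisons. With library totals as scaling, the median of all genes moved by 0.19 under DON at both times and by 0.10 in glutamine-free cells at both times. Changes under DON at 24 and 48 h are given below with the value under that scaling where their direction or call turned on it. In 1 fit of all 52 libraries the calls of Cdk4 (24 and 48 h) and Cdkn1b (48 h) under CB-839, of Ccne1 and Cdkn1b under DON at 24 h, and of Cdkn1b at 24 h and Cdkn2c and Cdkn2d at 48 h without glutamine were lost. Without the filter on low counts those of Cdkn1b at 4 h without glutamine, Cdk4 at 24 h under CB-839 and Cdk2 at 48 h under DON were lost. Fitted on the 8 libraries compared, those of Cdkn1b at 4 h and Cdkn2d at 48 h without glutamine, and of Cdk4 at 48 h under CB-839 and under DON, were lost.

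**Figure D1:**
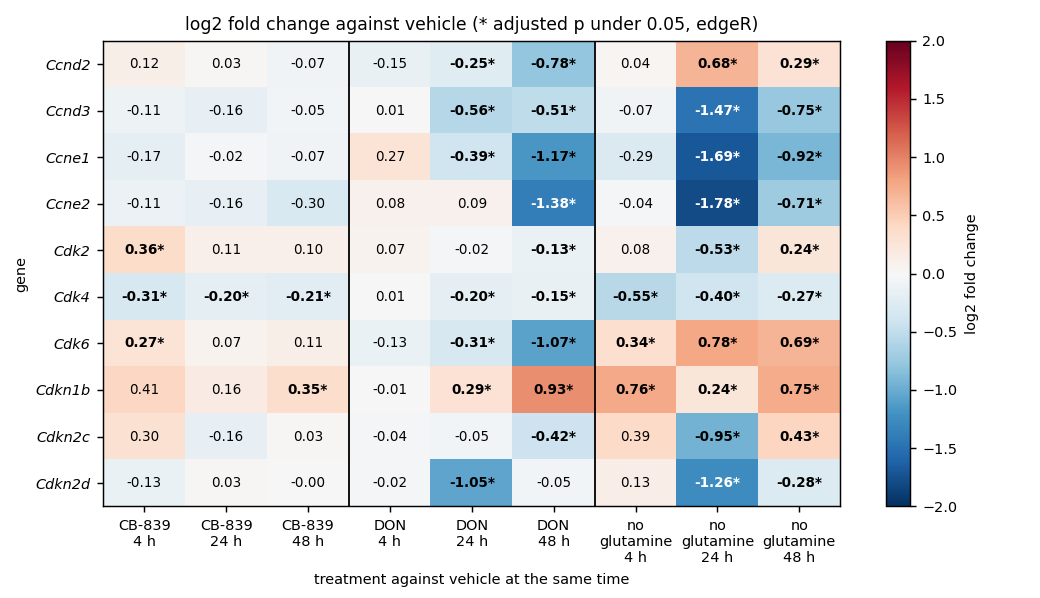
log2 fold change of each of the 10 genes (rows) against vehicle at the same time, under CB-839, DON and without glutamine at 4, 24 and 48 h (columns), with a star where the adjusted p was under 0.05. The glutamine-free columns at 24 and 48 h are starred in all 10 rows, with Ccnd2, Cdk6 and Cdkn1b up at both times. When libraries were scaled by their totals only, these cells drawn as lower under DON changed sign: Cdk2, Cdk4 and Cdkn2d at 48 h, Cdk2 and Cdkn2c at 24 h, and Cdkn1b and Cdkn2d at 4 h.

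Activation itself, in vehicle, moved nearly all of the 10 genes against unstimulated cells, and most of all genes tested. Between unstimulated and vehicle-treated cells at 4 h, 3 of the 10 genes rose and 6 fell (33.9% rose and 41% fell of all genes). At 24 and at 48 h 8 were above and 2 below the unstimulated level, while of all genes 38.7% were higher and 45.5% lower at 24 h and 38.3% and 45.1% at 48 h. Between 4 and 24 h of vehicle treatment 8 rose and 2 fell (36.4% rose and 37.8% fell of all genes), and between 24 and 48 h 5 rose and none fell (15.6% rose and 16.8% fell of all). The call of Cdk4 between 4 and 24 h was also lost with RLE size factors (0.10), library totals (0.13) and DESeq2 (0.11). The calls of Cdk4 (0.19) and Cdk6 (-0.23) between 4 and 24 h, and of Ccne2 (0.43) between 24 and 48 h, were lost when 1 of several vehicle libraries was left out: A, B or D at 4 h or A, B or D at 24 h for Cdk6, C or D at 4 h or B or C at 24 h for Cdk4, and A or B at either time for Ccne2. The early change was made up of a rise of Ccnd2, Cdk4 and Cdk6 with a fall of the other D cyclin, Ccne1, Cdk2 and all 3 inhibitors, while Ccne2 did not pass the test. B cell markers moved over the same course: 7 of 10 rose at 4 h against unstimulated cells, and 9 of 10 were lower at 48 h. Of 7 CD8+ T cell markers, 1 rose and 6 fell at 4 h, and all 7 were lower at 48 h. B cell markers made up a mean of 0.164% of counts in unstimulated cells, 0.202% in vehicle at 4 h and 0.0509% at 48 h. For CD8+ T cell markers these shares were 0.525, 0.178 and 0.22%. The part of either set of markers in these results was not tested.

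**Figure D2:**
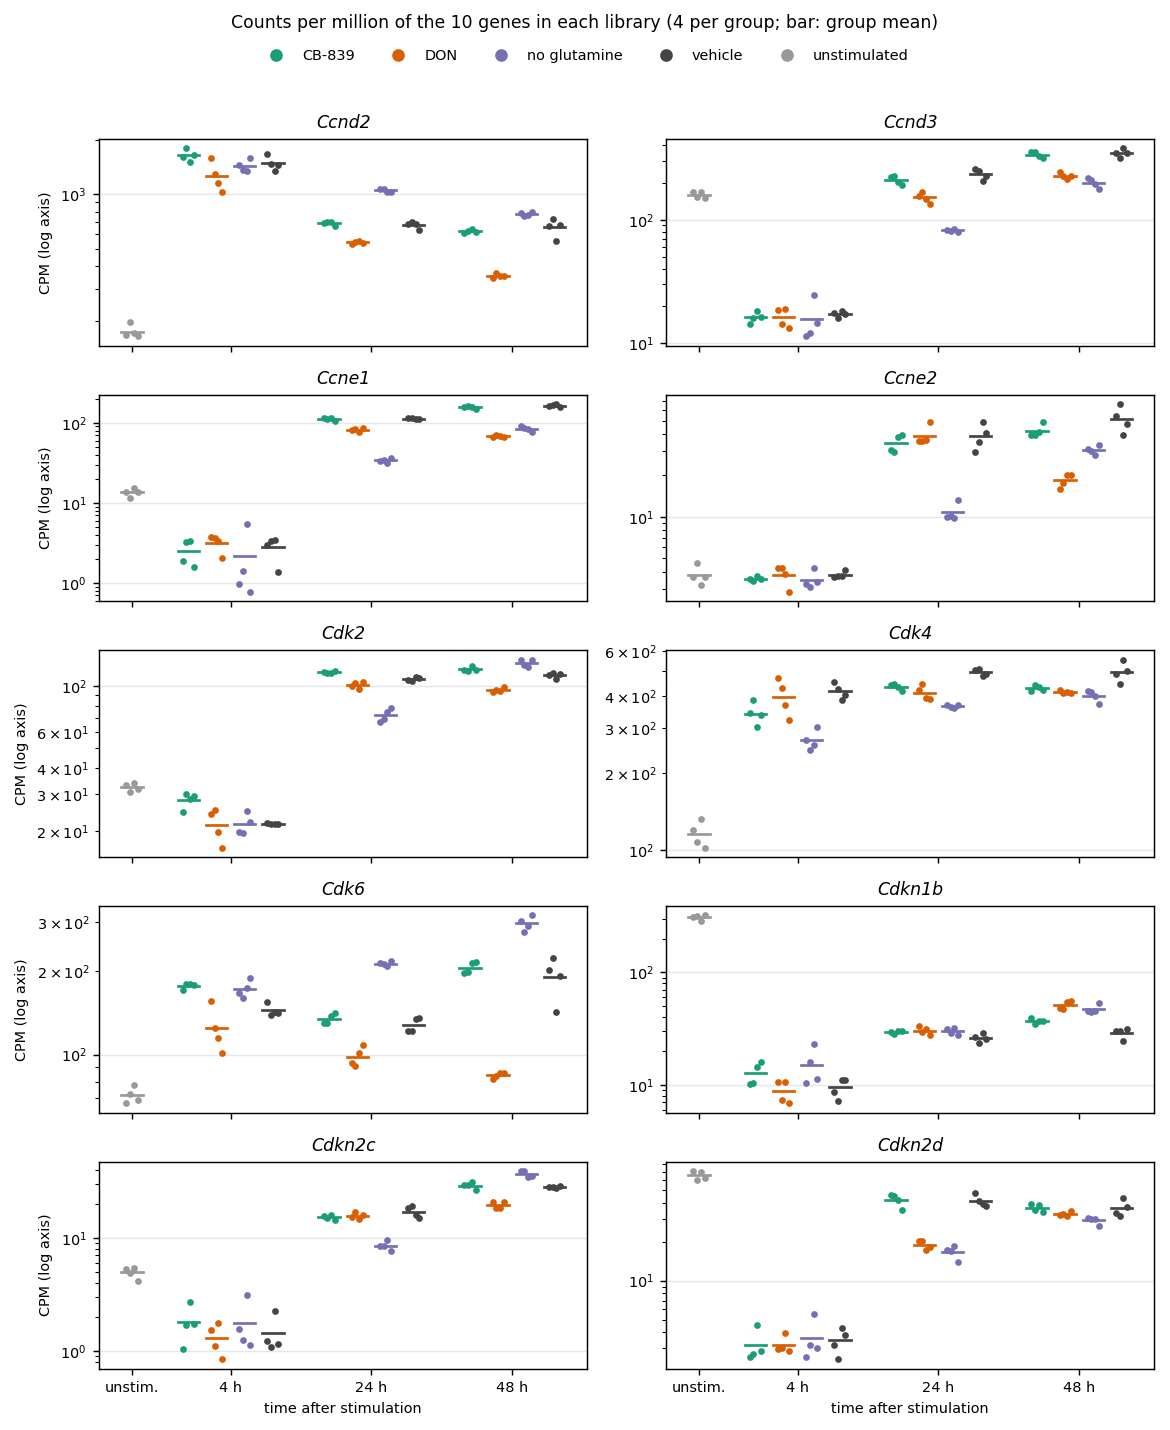
CPM (log axis) of each of the 10 genes in every library, 4 per group, with the group mean as a bar, for unstimulated cells and for CB-839, DON, glutamine-free and vehicle cells at 4, 24 and 48 h. Ccnd2 peaks at 4 h, Cdkn1b is highest in unstimulated cells, and Ccnd3, Ccne1, Cdkn2c and Cdkn2d are at their lowest at 4 h in all treatments.

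Ccnd2, the D cyclin that lymphocytes make soon after antigen or cytokine stimulation, was the member with the highest CPM at 4 h. It had 166, 196, 171 and 164 CPM in the unstimulated libraries and 1676, 1467, 1347 and 1447 CPM in vehicle-treated cells at 4 h. The groups were far apart (log2 fold change 3.09 ± 0.09, adjusted p = 2.26e-16). Its vehicle level then fell to 677 ± 28.4 CPM at 24 h (SD, n = 4; log2 fold change -1.19 ± 0.09, adjusted p = 2.64e-10 against 4 h) and was 656 ± 73.2 CPM at 48 h. Per kilobase of exon, a scale on which genes can be set against each other, Ccnd2 and Ccnd3 were about level in unstimulated cells, at 18.5 ± 1.56 and 18.2 ± 1.08 CPM per kilobase.

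At 24 h Ccnd2 had 1065, 1073, 1024 and 1033 CPM in glutamine-free cells, against 681, 706, 682 and 638 CPM in vehicle. All 4 glutamine-free libraries lay above all 4 vehicle libraries, and the gene rose by 1.60-fold (log2 fold change 0.68 ± 0.04, adjusted p = 6.68e-11). DON-treated cells had 532, 544, 554 and 540.4 CPM at that time and lay below every vehicle library (log2 fold change -0.25 ± 0.04, adjusted p = 6.68e-05). That small fall was not called when libraries were scaled by their totals only, where the log2 fold change was -0.06.

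At 48 h DON-treated cells had 345, 367, 354 and 352 CPM of Ccnd2 and vehicle-treated cells 664, 729, 554 and 676 CPM. No libraries overlapped, and Ccnd2 fell to a fraction of 0.582 of the vehicle level (log2 fold change -0.78 ± 0.06, adjusted p = 1.28e-09). Glutamine-free cells still held more than vehicle, with 790.2, 755, 765 and 796 CPM (log2 fold change 0.29 ± 0.06, adjusted p = 0.000567). The lowest vehicle library of the 4 was C. Without it the rise in glutamine-free cells was smaller and still called (log2 fold change 0.21), and CB-839 lowered Ccnd2 past the threshold (log2 fold change -0.14), which it did not with all libraries (log2 fold change -0.07 ± 0.06, adjusted p = 0.46).

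Ccnd3, the other D cyclin of lymphocytes, ran opposite to Ccnd2 in vehicle, from unstimulated cells to 4 h and from 4 to 24 h. It had 167, 154, 167 and 149 CPM in unstimulated cells, 17.5, 16.1, 18.4 and 17.2 CPM in vehicle at 4 h, 206 to 258 CPM at 24 h and 314 to 378 CPM at 48 h. The fall at 4 h (log2 fold change -3.20 ± 0.08, adjusted p = 4.48e-17) left it at 1.97 ± 0.11 CPM per kilobase beside 158 ± 14.7 for Ccnd2. From there it rose to 24 h (log2 fold change 3.70 ± 0.09, adjusted p = 4.98e-17) and again to 48 h (log2 fold change 0.56 ± 0.08, adjusted p = 1.01e-05).

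Glutamine-free cells had 82.6, 81.8, 83.8 and 79.5 CPM of Ccnd3 at 24 h, against 258, 249, 206 and 227 CPM in vehicle-treated cells. The groups did not overlap, and Ccnd3 fell (log2 fold change -1.47 ± 0.07, adjusted p = 2.06e-12). DON-treated cells, with 156, 167, 148 and 134 CPM, lay between them (log2 fold change -0.56 ± 0.07, adjusted p = 2.02e-06). At 48 h the log2 fold change was -0.75 ± 0.07, adjusted p = 2.51e-08 in glutamine-free cells, whose libraries held 179 to 216 CPM. Under DON it was -0.51 ± 0.07, adjusted p = 1.37e-06, with 212 to 242 CPM, and the vehicle libraries held 314 to 378 CPM. At 4 h no treatment changed Ccnd3 past the threshold, but without glutamine-free library C, which at 24.4 CPM was the highest of its group, it was called lower (log2 fold change -0.34).

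The 250 bases before the upstream RefSeq start of Ccnd3, on GRCm38.p6, are printed because a vehicle H3K27ac peak described further on covers them. They also hold 1 of the motifs searched, while the window of a RefSeq start 88416 bases downstream held none. The search covered a forkhead core (GTAAACA), E2F sites (TTTCCCGC, TTTCGCGC, TTTGCCGC or TTTGGCGC) and the E-box CACGTG, on both strands. The window is chr17:47504801-47505050, plus strand, and the capitals mark the forkhead match, read on the other strand, at -243:
Ccnd3: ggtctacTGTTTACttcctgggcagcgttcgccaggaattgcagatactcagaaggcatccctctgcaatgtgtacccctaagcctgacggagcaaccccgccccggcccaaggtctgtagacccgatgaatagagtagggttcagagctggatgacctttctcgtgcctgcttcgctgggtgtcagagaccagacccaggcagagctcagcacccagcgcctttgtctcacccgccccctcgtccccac
Forkhead matches occurred in 3.17% of 32851 RefSeq promoters of the same length. RefSeq windows were found for 8 of the 10 genes, and those of Ccnd2 and Ccne2 are not analysed here. Of the 8, Ccnd3 alone held the forkhead core. A match is a stretch of letters and not a measured binding site.

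Ccne1, the E cyclin that activates CDK2 late in G1, had the widest range of the 10 genes on a log2 scale (6.72). Its group means lay between 2.15 CPM in glutamine-free cells at 4 h and 164 CPM in vehicle at 48 h. It had 13.7, 11.4, 15.6 and 13.6 CPM in unstimulated cells and 2.97, 3.31, 3.43 and 1.38 CPM in vehicle at 4 h (log2 fold change -2.27 ± 0.16, adjusted p = 1.22e-10). By 24 h the vehicle libraries held 115, 114, 113 and 110.1 CPM (log2 fold change 5.28 ± 0.17, adjusted p = 1.78e-15 against 4 h). At 48 h they held a mean of 164 ± 6.85 CPM (log2 fold change 0.54 ± 0.13, adjusted p = 0.0029 against 24 h).

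Without glutamine, the 24 h libraries had 33.2, 34.4, 31.5 and 36.3 CPM of Ccne1, far below every vehicle library. This was a fall to 0.309 of the vehicle level (log2 fold change -1.69 ± 0.05, adjusted p = 5.96e-16). DON-treated libraries had 80.97, 84.6, 77.1 and 85.7 CPM and also lay below all vehicle libraries (log2 fold change -0.39 ± 0.05, adjusted p = 1.11e-06). The CB-839 libraries, with 115, 111, 115 and 106 CPM, overlapped vehicle, at a log2 fold change of -0.02 whose 95% interval was -0.12 to 0.07.

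At 48 h the order of the treatments had turned. DON-treated cells had the lowest Ccne1, 66.5, 70.9, 68.4 and 66.6 CPM, and glutamine-free cells had 91.3, 85.6, 83.9 and 77.7 CPM, against 161, 168, 172 and 157 CPM in vehicle. Both groups stayed below vehicle (log2 fold change -1.17 ± 0.05, adjusted p = 7.84e-13 under DON, and log2 fold change -0.92 ± 0.05, adjusted p = 9.77e-11 without glutamine), and they did not overlap each other. At 4 h the glutamine-free libraries had 0.967, 1.41, 5.45 and 0.769 CPM, with library C far above the other 3. Ccne1 was not called with all 4 (log2 fold change -0.29 ± 0.52, adjusted p = 0.696), and without library C it was called lower (log2 fold change -1.29).

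Ccne2, the other E cyclin, had a lower level per kilobase than Ccne1 in unstimulated cells and at 24 and 48 h, and not in every group at 4 h. It did not differ past the threshold between vehicle at 4 h and unstimulated cells (log2 fold change 0.01 ± 0.18, adjusted p = 0.955) and rose by 24 h to 29.4, 34.9, 48.7 and 40.9 CPM in vehicle (log2 fold change 3.28 ± 0.17, adjusted p = 3.26e-12 against 4 h). These 4 vehicle libraries were widely spread. Glutamine-free cells at 24 h held 10.01, 10.1, 9.82 and 13.4 CPM and lay below all of them (log2 fold change -1.78 ± 0.15, adjusted p = 9.67e-09). DON-treated cells held 35.7, 35.4, 36.2 and 48.7 CPM at 24 h and overlapped vehicle (log2 fold change 0.09 ± 0.14, adjusted p = 0.617, 95% interval -0.19 to 0.37).

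By 48 h DON-treated cells had 15.8, 17.6, 20.1 and 20.3 CPM of Ccne2, glutamine-free cells 30.96, 29.95, 28.1 and 33.5 CPM and vehicle-treated cells 53.7, 66.1, 39.2 and 47.4 CPM. Ccne2 fell under DON (log2 fold change -1.38 ± 0.13, adjusted p = 2e-08) and without glutamine (log2 fold change -0.71 ± 0.12, adjusted p = 9.89e-05), and neither group overlapped vehicle. With CB-839 it was not called at 48 h (log2 fold change -0.30 ± 0.12, adjusted p = 0.116), whereas without vehicle library C, the lowest of the vehicle libraries, it was (log2 fold change -0.41). Reads of Ccne2 carry an added uncertainty, because 17.4% of its exon length is shared with Ints8 on the other strand and the counts were made without a strand option. Such overlap is 7.87% for Ccnd2 and less for Ccnd3, Cdk6 and Cdk2, and there is none for Ccne1 and the 3 inhibitors.

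Cdk4, a kinase partner of D cyclins, was the kinase with the highest level per length in every group. It rose with activation to 456, 428, 385 and 405 CPM in vehicle at 4 h, against 119, 108, 132 and 102 CPM in unstimulated cells (log2 fold change 1.87 ± 0.08, adjusted p = 7.15e-14), and was nearly level afterwards, at 497 ± 14.6 CPM at 24 h and 497 ± 45.8 CPM at 48 h. It was the one member that fell at all 3 times both under CB-839 and without glutamine. The changes were small.

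At 4 h Cdk4 had 270.3, 246, 257 and 304 CPM in glutamine-free cells and 342, 387, 302 and 336 CPM under CB-839, against 456, 428, 385 and 405 CPM in vehicle. All glutamine-free libraries lay below all vehicle libraries (log2 fold change -0.55 ± 0.06, adjusted p = 1.18e-06), while the CB-839 and vehicle groups overlapped in 1 library each (log2 fold change -0.31 ± 0.06, adjusted p = 0.00223). DON-treated cells had 471, 429, 369 and 323 CPM and overlapped vehicle (log2 fold change 0.01 ± 0.06, adjusted p = 0.973).

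The log2 fold change of Cdk4 without glutamine was -0.40 ± 0.05, adjusted p = 3.33e-07 at 24 h, with 358 to 371 CPM against 481 to 513 CPM in vehicle. At 48 h it was -0.27 ± 0.06, adjusted p = 0.00104, with 372 to 419 CPM against 445 to 556 CPM. Under CB-839 the fold changes were -0.20 ± 0.05, adjusted p = 0.0171 at 24 h and -0.21 ± 0.06, adjusted p = 0.0219 at 48 h. The 24 h call under CB-839 was lost without vehicle library B (-0.19), and the 48 h call without CB-839 library A or C.

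DON lowered Cdk4 at 24 h (log2 fold change -0.20 ± 0.05, adjusted p = 0.000978) and at 48 h (log2 fold change -0.15 ± 0.06, adjusted p = 0.0299) under the trimmed-mean scaling, but scaling by library totals gave -0.01 at 24 h and turned the 48 h value to 0.04, neither of them called. The 48 h call was also lost without DON library B or D, and without vehicle library C, which had the highest Cdk4 of its group (log2 fold change -0.09). Tspan31 covers 19.7% of the exon length of Cdk4 on the opposite strand, so part of these reads may belong to it.

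The 250 bases before the RefSeq start of Cdk4 (chr10:127063285-127063534, plus strand) lie within H3K27ac peaks of both the glutamine-free and the vehicle list, and are shown for their E-boxes, the CACGTG letters that MYC with MAX can bind. The capitals mark 4 of them, at -172, -118, -98 and -11:
Cdk4: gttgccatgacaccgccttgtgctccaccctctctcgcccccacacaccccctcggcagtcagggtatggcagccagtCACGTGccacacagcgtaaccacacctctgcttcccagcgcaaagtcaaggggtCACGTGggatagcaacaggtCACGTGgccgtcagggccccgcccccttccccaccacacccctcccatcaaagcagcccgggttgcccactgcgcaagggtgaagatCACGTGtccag
An E-box stood in 6.02% of the 32851 promoters, and 4 or more of them in 7 promoters, or 0.0213%. Cdk6 was the only other gene of the 8 with an E-box in its window, at -220. Its RefSeq start lies 2408 bases downstream of the start in the count table, and its window is not printed.

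Cdk6, the second kinase of D cyclins, moved against Cdk4 in glutamine-free cells. It had 214, 212, 208 and 217 CPM there at 24 h, against 122, 122, 134 and 136 CPM in vehicle, and no glutamine-free library overlapped a vehicle library (log2 fold change 0.78 ± 0.06, adjusted p = 1.16e-09). At 48 h the glutamine-free libraries held 303, 277, 291 and 318 CPM, against 203, 223, 143 and 192 CPM in vehicle (log2 fold change 0.69 ± 0.09, adjusted p = 3.43e-06). The rise was already called at 4 h, at 160.1 to 189.5 CPM against 139 to 155 CPM in vehicle (log2 fold change 0.34 ± 0.05, adjusted p = 2.38e-05). Cdk6 was thus called higher at all 3 times without glutamine.

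Under DON Cdk6 went the other way. It had 81.6, 83.7, 85.9 and 86.1 CPM at 48 h, below all 4 vehicle libraries and at 0.478 of the vehicle level (log2 fold change -1.07 ± 0.09, adjusted p = 4.73e-09). Vehicle library C was the lowest of its group, and without it the log2 fold change was -1.18. At 24 h DON-treated libraries had 93.04, 90.8, 102 and 108 CPM (log2 fold change -0.31 ± 0.06, adjusted p = 0.00018), a fall not called with library totals (-0.13). CB-839 raised Cdk6 at 4 h, with 171 to 179.9 CPM (log2 fold change 0.27 ± 0.05, adjusted p = 0.00131), and not past the threshold at 24 h (0.07 ± 0.06, adjusted p = 0.611) or 48 h (0.11 ± 0.09, adjusted p = 0.437).

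Cdk2, the kinase of E cyclins, had 33.3, 30.7, 34.2 and 31.9 CPM in unstimulated cells, 21.6 ± 0.168 CPM in vehicle at 4 h, 108 ± 2.11 CPM at 24 h and 112 ± 2.99 CPM at 48 h. It dipped at 4 h (log2 fold change -0.59 ± 0.05, adjusted p = 5.25e-09) before its rise (log2 fold change 2.26 ± 0.05, adjusted p = 7.07e-17). Without glutamine, it was lower at 24 h, with 66.9, 69.2, 74.8 and 78.5 CPM against 106, 106, 110.3 and 109 CPM in vehicle (log2 fold change -0.53 ± 0.05, adjusted p = 3.84e-08). It was higher at 48 h, with 134, 126, 123 and 133 CPM against 112, 115, 108 and 114 CPM (log2 fold change 0.24 ± 0.04, adjusted p = 8.37e-05). At neither time did the 2 groups overlap.

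CB-839 raised Cdk2 at 4 h, to 24.7, 30.2, 28.3 and 29.4 CPM, against 21.8, 21.5, 21.6 and 21.5 CPM in vehicle (log2 fold change 0.36 ± 0.07, adjusted p = 0.00302). Its CB-839 libraries at 24 and 48 h held 116 to 117 and 118 to 125 CPM, above every vehicle library, but the fold changes of 0.11 ± 0.05, adjusted p = 0.276 and 0.10 ± 0.04, adjusted p = 0.121 did not pass. The 24 h value was called (0.10) in the fit of the 8 libraries with the letter as a block, and the 48 h value by DESeq2 (0.09). The small fall under DON at 48 h (log2 fold change -0.13 ± 0.04, adjusted p = 0.00863) became 0.06 with library totals, which was not called. At 24 h the DON value was not called (log2 fold change -0.02 ± 0.05, adjusted p = 0.704), and library totals turned it to a called rise of 0.16.

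The window before the Cdk2 start (chr10:128705052-128705301, minus strand) is printed as the one of the 8 that held an E2F site. The capitals mark GCGGGAAA, which is TTTCCCGC on the other strand, at -140. Any of the 4 E2F sites occurred in 1.86% of all promoters.
Cdk2: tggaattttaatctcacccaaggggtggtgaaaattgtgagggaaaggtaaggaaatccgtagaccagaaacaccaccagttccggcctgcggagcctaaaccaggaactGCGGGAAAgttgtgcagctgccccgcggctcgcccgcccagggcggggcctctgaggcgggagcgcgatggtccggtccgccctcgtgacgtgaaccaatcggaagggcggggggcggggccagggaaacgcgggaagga

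Cdkn1b, whose product p27 restrains CDK2 in resting cells, was the inhibitor with the highest level in unstimulated cells, at 309, 319, 287 and 323 CPM. In vehicle at 4 h it had 8.63, 7.21, 11.1 and 10.9 CPM (log2 fold change -5.03 ± 0.13, adjusted p = 3.65e-17), and at 24 and 48 h it had recovered to 26.2 ± 2.33 and 29.03 ± 2.93 CPM, still far below the unstimulated level. Per kilobase, it was 67.99 ± 3.58 CPM in unstimulated cells and 6.38 ± 0.644 CPM in vehicle at 48 h. It was the only member higher in all 3 treatments at 48 h.

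At 48 h Cdkn1b had 48.3, 46.97, 54.6 and 55.7 CPM under DON, 45.8, 44.5, 45.7 and 53.6 CPM without glutamine and 39.5, 35.1, 36.9 and 36.8 CPM under CB-839, against 29.98, 29.9, 24.8 and 31.4 CPM in vehicle. Every treated library was above every vehicle library. The log2 fold changes were 0.93 ± 0.08, adjusted p = 5.39e-09 under DON, 0.75 ± 0.08, adjusted p = 2.86e-07 without glutamine and 0.35 ± 0.08, adjusted p = 0.00635 under CB-839. B cell markers were also higher under DON at 48 h: 5 of the 5 tested rose, and the 10 markers summed to 0.0738 to 0.0798% of counts, against 0.0492 to 0.0542% in vehicle. In glutamine-free cells, where Cdkn1b also rose, their share was 0.0404 to 0.0472%. Both myeloid markers tested rose under DON, and the 11 of that list summed to 0.000145 to 0.000675% of counts, against 5.35e-05 to 8.47e-05% in vehicle. Only 5 of 10 B cell and 2 of 11 myeloid markers passed the filter on low counts. A gene can pass it through the group where it is high, so the rises of the tested markers may have been set by the filter. Of 3 CD4+ T cell markers tested, 2 rose and 1 fell under DON and likewise without glutamine, and the 4 of that list summed to 0.00101 to 0.00122% under DON and 0.00306 to 0.00384% without glutamine, against 0.0007 to 0.000833% in vehicle. The part of these markers in the results at 48 h was not tested.

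The earlier differences of Cdkn1b were smaller. At 24 h it rose under DON (log2 fold change 0.29 ± 0.07, adjusted p = 0.0023) and without glutamine (log2 fold change 0.24 ± 0.07, adjusted p = 0.00701), in groups that overlapped vehicle. The glutamine-free call at 24 h was lost without vehicle library B (0.17). At 4 h the glutamine-free libraries had 10.3, 15.8, 22.9 and 11.4 CPM, against 8.63, 7.21, 11.1 and 10.9 CPM in vehicle, again with overlap (log2 fold change 0.76 ± 0.25, adjusted p = 0.0265). That call was lost when any 1 of 4 libraries was left out, vehicle A or B or glutamine-free B or C. Library C was the highest (without it, log2 fold change 0.51). The same library carried the highest B cell and myeloid marker shares, whose part was not tested.

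Cdkn2c, the INK4 gene for p18, was low at 4 h, at 1.22, 1.09, 2.29 and 1.15 CPM in vehicle, against 5.36, 4.95, 5.37 and 4.16 CPM in unstimulated cells (log2 fold change -1.80 ± 0.17, adjusted p = 1.39e-08). It rose by 24 h (log2 fold change 3.52 ± 0.17, adjusted p = 6.06e-13) and by 48 h (log2 fold change 0.72 ± 0.14, adjusted p = 0.00037). Glutamine-free cells had 8.44, 8.51, 9.65 and 7.60 CPM at 24 h, against 18.2, 19.3, 15.8 and 14.8 CPM in vehicle (log2 fold change -0.95 ± 0.09, adjusted p = 2.34e-08). At 48 h they had 38.9, 38.9, 34.6 and 35.4 CPM, against 28.3, 28.1, 27.4 and 28.6 CPM (log2 fold change 0.43 ± 0.06, adjusted p = 3.83e-06). The gene was therefore below every vehicle library at the first of these times and above every one at the second.

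DON-treated libraries overlapped vehicle in Cdkn2c at 24 h (log2 fold change -0.05 ± 0.09, adjusted p = 0.642, 95% interval -0.22 to 0.12), a value that library totals turned to 0.14, not called. DON lowered the gene at 48 h, to 20.7, 18.4, 18.3 and 20.8 CPM (log2 fold change -0.42 ± 0.06, adjusted p = 3.12e-06). Under CB-839 it was not called at any time, with log2 fold changes of 0.30 at 4 h, -0.16 at 24 h and 0.03 at 48 h.

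Cdkn2d, the INK4 gene for p19, was abundant in unstimulated cells at 70.7, 59.9, 69.3 and 62.2 CPM and fell to 3.19, 2.47, 4.34 and 3.83 CPM in vehicle at 4 h (log2 fold change -4.25 ± 0.15, adjusted p = 1.97e-15). Its vehicle mean was 41.3 ± 4.36 CPM at 24 h and 36.6 ± 5.33 CPM at 48 h. At 24 h DON-treated libraries had 20.3, 20.2, 17.4 and 18.1 CPM and glutamine-free libraries 17.3, 17.02, 18.4 and 13.96 CPM, against 47.5, 41.2, 38.98 and 37.6 CPM in vehicle. Both treated groups lay below all vehicle libraries, at log2 fold changes of -1.05 ± 0.10, adjusted p = 2.6e-08 under DON and -1.26 ± 0.10, adjusted p = 1.29e-09 without glutamine.

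At 48 h these falls had narrowed. DON-treated libraries had 32.4, 32.96, 31.5 and 34.4 CPM, glutamine-free libraries 30.5, 30.2, 29.99 and 26.6 CPM and vehicle libraries 33.6, 31.8, 43.8 and 37.3 CPM. The DON group overlapped vehicle and was not called (log2 fold change -0.05 ± 0.08, adjusted p = 0.589, 95% interval -0.22 to 0.11; 0.14 with library totals, not called), while the glutamine-free group lay just below it and was (log2 fold change -0.28 ± 0.08, adjusted p = 0.00956). Vehicle library C was the highest, and without it the glutamine-free value was -0.18 and still called. The call was lost with library totals (-0.17), in the fit of the 8 libraries compared with (-0.27) or without (-0.28) the block, and in the fit of all 52 libraries (-0.32). CB-839 did not change Cdkn2d past the threshold at any time.

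Set per kilobase of exon, the paired genes showed a change of composition. Ccnd2 made up 50.5 ± 2.80% of the D cyclin RNA (Ccnd2 plus Ccnd3; mean ± SD, n = 4) in unstimulated cells, and between 98.6 and 98.9% in the 4 groups at 4 h. At 24 h it made up 92.3 ± 0.229% in glutamine-free cells, 76.99 ± 1.66% under DON and 75.5 ± 1.29% under CB-839, against 72.9 ± 1.85% in vehicle. At 48 h the shares were 78.4 ± 1.61% without glutamine and 59.4 ± 1.67% under DON, against 63.7 ± 4.42% in vehicle. The glutamine-free share was thus the highest of its time at 24 and at 48 h.

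Cdk6 made up 11.9 ± 0.0665% of Cdk4 plus Cdk6 in glutamine-free cells at 24 h, against 5.67 ± 0.461% in vehicle. At 48 h it made up 14.7 ± 1.31% without glutamine and 4.50 ± 0.151% under DON, against 8.26 ± 1.99% in vehicle. Cdk4 was the larger part in every group. For the E cyclins, Ccne1 made up 73.5 to 83.1% of the sum in every group at 24 and 48 h and 82.3% in unstimulated cells, and 37.9 to 52.1% at 4 h, when both genes were near their lowest. Cdkn2c made up 4.25 ± 0.351% of the 2 INK4 genes in unstimulated cells, and at 48 h 42.5 ± 1.48% in glutamine-free cells and 25.9 ± 1.08% under DON, against 31.3 ± 3.24% in vehicle. At 24 h it was 32.7 ± 1.51% under DON and 23.1 ± 0.867% without glutamine, against 19.5 ± 1.42% in vehicle. These shares are descriptions, with no test.

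**Figure D3:**
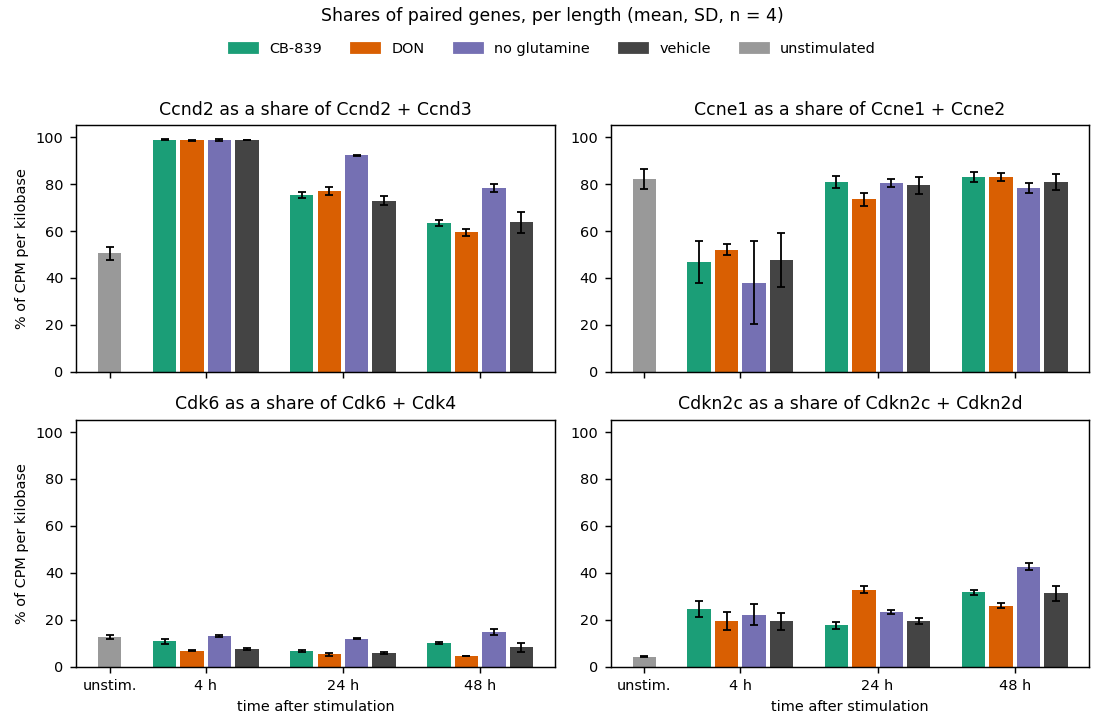
Share of the first gene in each pair, in percent of the pair's CPM per kilobase (mean and SD over 4 libraries), for unstimulated cells and for each treatment and vehicle at 4, 24 and 48 h. Glutamine-free cells have the highest Ccnd2 and Cdk6 shares at 24 and 48 h, at 92.3 and 78.4% for Ccnd2 and 11.9 and 14.7% for Cdk6.

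Compared with each other at the same time, DON and CB-839, both at 1 µM, differed at 4 h in 4 of the 10 genes, with Cdk4 higher and Ccnd2, Cdk2 and Cdk6 lower under DON (7.67% higher and 8.32% lower of all genes). At 24 h they differed in 6 genes, Ccnd2, Ccnd3, Ccne1, Cdk2, Cdk6 and Cdkn2d, all lower under DON (29% higher and 30.8% lower of all), and at 48 h in 8, of which Cdkn1b was higher under DON and all others but Cdk4 and Cdkn2d were lower (35.7% higher and 34.7% lower of all). With library totals the split was 4 higher and 5 lower under DON at 24 h, and 2 higher and 6 lower at 48 h. The shares of all genes just given are not of that scaling. The largest of these at 48 h was Cdk6, with 84.3 CPM under DON and 206 CPM under CB-839 (log2 fold change -1.18 ± 0.09, adjusted p = 1.2e-09). Ccne1 (log2 fold change -1.10 ± 0.05, adjusted p = 1.87e-12) and Ccne2 (log2 fold change -1.08 ± 0.13, adjusted p = 5.06e-07) followed. Cdk4 did not differ past the threshold at 24 h (95% interval of the log2 difference -0.09 to 0.09) or 48 h (-0.06 to 0.18), and library totals made both values called rises, of 0.17 at 24 h and 0.23 at 48 h. That scaling also turned the called fall of Cdk2 at 24 h to 0.05, which was not called. The call of Cdk2 was also lost without CB-839 library B, C or D or DON library A, B or C, with -0.08 as the smallest value, without DON library C. RLE size factors (-0.12) and the fit of the 8 libraries compared (-0.09) lost it too. In the fit of all 52 libraries the calls of Cdk4 at 4 h (0.22) and Ccne1 at 24 h (-0.45) were lost. That fit also called Cdkn1b lower under DON at 4 h (-0.53).

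Glutamine-free and DON-treated cells differed in 4 genes at 4 h, with Ccnd2, Cdk6 and Cdkn1b higher and Cdk4 lower without glutamine (16% higher and 20.1% lower of all genes). At 24 h they differed in 8, all but Cdkn1b and Cdkn2d, with 2 higher and 6 lower (28.7% higher and 30.2% lower of all), and at 48 h in 9, with Ccnd3, Cdkn1b and Cdkn2d lower and the other 6 but Cdk4 higher (34.6% higher and 34.1% lower of all). The count at 4 h was 5 without glutamine-free library C and 2 without DON library B or D, and the calls of Ccnd2 and Cdkn1b were each lost in 5 of the 8 fits that left out a library. At 48 h the call of Cdkn1b was lost in 5 of 8 such fits, and that of Cdkn2d without glutamine-free library D. In the fit of all 52 libraries the 48 h calls of Ccnd3, Ccne1, Cdkn1b and Cdkn2d were lost. At 24 h Ccnd2 and Cdk6 were higher without glutamine (0.93 ± 0.04, adjusted p = 5.75e-13, and 1.09 ± 0.06, adjusted p = 7.1e-12), and both E cyclins were lower (-1.30 ± 0.05, adjusted p = 3.24e-14 for Ccne1 and -1.87 ± 0.15, adjusted p = 4.46e-09 for Ccne2). At 48 h the E cyclins had changed sides: both were higher without glutamine (0.25 ± 0.05, adjusted p = 0.000429 and 0.66 ± 0.13, adjusted p = 0.000156). Cdk6 was the most different gene at that time, with 297 CPM without glutamine and 84.3 CPM under DON (log2 fold change 1.75 ± 0.09, adjusted p = 6.47e-12). Against CB-839, glutamine-free cells had Cdk2 and Cdk4 lower at 4 h (12.9% higher and 18.5% lower of all genes), and Ccne1 as well without glutamine-free library C (-1.13). At 24 h Ccnd2 and Cdk6 were higher and 7 genes lower (29.1% higher and 28.9% lower of all), and at 48 h Ccnd2, Cdk2, Cdk6, Cdkn1b and Cdkn2c were higher and the rest but Cdk4 lower (26.6% higher and 24.4% lower of all). In the fit of all 52 libraries the calls of Cdk2, Cdkn1b, Cdkn2c and Cdkn2d against CB-839 at 48 h were lost. The comparisons between treatments share libraries with those against vehicle.

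The change of each effect between 24 and 48 h was tested as an interaction. In glutamine-free cells it was called for 8 of the 10 genes, 7 upward and 1 downward (16.5% of all genes upward and 12.6% downward). It was largest for Cdkn2c, whose log2 effect was -0.95 at 24 h and 0.43 at 48 h (interaction 1.39 ± 0.10, adjusted p = 1.02e-12). Ccne2 (1.08 ± 0.21), Cdkn2d (0.99 ± 0.13), Ccne1 (0.78 ± 0.07), Cdk2 (0.77 ± 0.06) and Ccnd3 (0.73 ± 0.10) moved the same way, toward or past vehicle. Ccnd2 moved down (-0.39 ± 0.07, adjusted p = 7.31e-05), also toward vehicle, while Cdkn1b moved further above it (0.51 ± 0.11, adjusted p = 0.000478). Cdk4 and Cdk6 did not pass. Without vehicle library C at 48 h the interaction of Cdk4 was called too (0.21), and 8 were upward and 1 downward. In the fit of all 52 libraries the interactions of Ccne1 and Cdkn1b were not called.

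Under DON the interaction was called for 7 genes, 2 upward and 5 downward (18.2% of all genes upward and 22.1% downward). The DON effect on Ccne2 was 0.09 at 24 h and -1.38 at 48 h (interaction -1.48 ± 0.21, adjusted p = 1.21e-06). Ccne1 (-0.79 ± 0.07), Cdk6 (-0.77 ± 0.11), Ccnd2 (-0.55 ± 0.07) and Cdkn2c (-0.38 ± 0.10) also moved further below vehicle, while Cdkn1b (0.63 ± 0.11) and Cdkn2d (0.98 ± 0.13) moved up. The interaction of Cdkn2c was not called in the fit of all 52 libraries. For CB-839 edgeR called none of the 10 interactions, with 2.27% of all genes upward and 1.23% downward. Of the 10, 1 (Cdkn2c) had an unadjusted p under 0.05, and DESeq2 called none.

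Other genes of the pathway were taken from lists drawn up by function, also with earlier results of these data known. Of 20 replication genes known as E2F targets, all 20 fell in glutamine-free cells at 24 h, when 28.9% of all genes fell. Their median log2 fold change was -1.26, where that of all genes was 0.03. Rrm2 (-2.86 ± 0.09) and Tyms (-2.32 ± 0.06), which make deoxynucleotides, Tk1 (-2.60 ± 0.09), which salvages thymidine, and the origin-licensing gene Cdc6 (-2.18 ± 0.08) had the smallest adjusted p. At 48 h 10 of the 20 fell and 1 rose in these cells (median -0.19), where 26.3% of all genes fell and 28% rose. With library totals 7 fell and 1 rose. Under DON 13 fell and 1 rose at 24 h (median -0.30), where 29.9% of all genes fell and 28.1% rose. With library totals 8 fell and 4 rose. At 48 h 18 fell under DON (median -0.87), where 35.6% of all genes fell. Among them were Rrm2 at -1.09 ± 0.05, Mcm7, a subunit of the replicative helicase, at -1.11 ± 0.05, Cdc6 at -0.99 ± 0.04 and Mcm10 at -1.06 ± 0.05. CB-839 lowered 1 of the 20 at 24 h, when 2.48% of all genes fell, and 4 at 48 h, when 6.73% fell. None of the 20 rose at 48 h. Without vehicle library C 4 fell and 3 rose at 48 h. The shares of all genes are those of the main fits, and not of library totals or of the fit without library C.

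The 5 genes of S, G2 and M phase, Ccna2, Ccnb1, Ccnb2, Ccnf and Cdk1, were all lower at 24 h without glutamine, when 28.9% of all genes fell. Their median log2 fold change was -3.72. The mitotic cyclin Ccnb1 had 7.51 CPM there and 169.7 CPM in vehicle (log2 fold change -4.46 ± 0.11, adjusted p = 4.43e-17). At 48 h all 5 were still lower, by a median of -0.43, when 26.3% of all genes fell. Under DON all 5 fell at both times, with medians of -1.13 and -0.70. Of all genes 29.9% fell under DON at 24 h and 35.6% at 48 h. CB-839 lowered 2 of the 5 at 48 h and none at 4 or 24 h. Of all genes it lowered 6.64% at 4 h, 2.48% at 24 h and 6.73% at 48 h.

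Among the 13 pocket protein, E2F and DP genes, 4 rose and 8 fell in glutamine-free cells at 24 h, when 30% of all genes rose and 28.9% fell. E2f8 (-2.49 ± 0.08), E2f2 (-2.22 ± 0.09) and E2f7 (-1.99 ± 0.13) had the smallest adjusted p, beside the partner gene Tfdp1 (-0.95 ± 0.04), and all of these fell. At 48 h 5 rose and 4 fell (8 and 3 with library totals), where 28% of all genes rose and 26.3% fell, with Rb1, the gene of RB itself, at 0.72 ± 0.12 and its relative Rbl1 at 0.58 ± 0.08. Under DON at 48 h 3 rose and 7 fell (5 and 7 with library totals), where 35.6% of all genes rose and 35.6% fell, among them E2f3 at -1.09 ± 0.06 and Rbl2, the pocket protein of resting cells, at 0.93 ± 0.08. Of 12 genes that act on G1 cyclins, CDKs or p27, 3 rose and 6 fell without glutamine at 24 h, against the shares of all genes just given for that time. Cks1b (-1.82 ± 0.08) and Skp2 (-1.05 ± 0.08), parts of the ligase that marks p27 for degradation, and Cdc25a (-0.99 ± 0.06), a phosphatase that activates CDK2, were among those that fell. Under DON at 48 h 7 of the 12 fell and none rose, with the CDK-activating kinase genes Cdk7 (-0.88 ± 0.07) and Ccnh (-0.78 ± 0.05), Cdc25a (-0.74 ± 0.05) and Skp2 (-0.84 ± 0.08) having the smallest adjusted p. The median of the 12 was -0.20, with -0.063 as the highest value, and library totals moved the median of all genes up by 0.188. These counts may therefore turn on the scaling.

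Of 10 genes linked to T cell quiescence, 4 rose and 2 fell without glutamine at 24 h, and 4 rose and 3 fell at 48 h, near the shares of all genes at these times (30% rose and 28.9% fell at 24 h, 28% and 26.3% at 48 h). Under DON 1 rose and 6 fell at 24 h (3 and 4 with library totals), and 5 rose and 4 fell at 48 h (5 and 2 with library totals), when of all genes 28.1% rose and 29.9% fell at 24 h and 35.6% and 35.6% at 48 h. Klf2, a transcription factor of resting T cells, had 61.7 CPM under DON at 48 h and 5.11 CPM in vehicle (log2 fold change 3.70 ± 0.12, adjusted p = 1.2e-14), and Btg2, an antiproliferative gene, rose with it (log2 fold change 2.12 ± 0.08, adjusted p = 9.03e-14). In glutamine-free cells at 48 h Klf2 fell (log2 fold change -0.68 ± 0.14, adjusted p = 0.000332), and Btg1 rose (log2 fold change 0.95 ± 0.07, adjusted p = 5.13e-09).

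**Figure D4:**
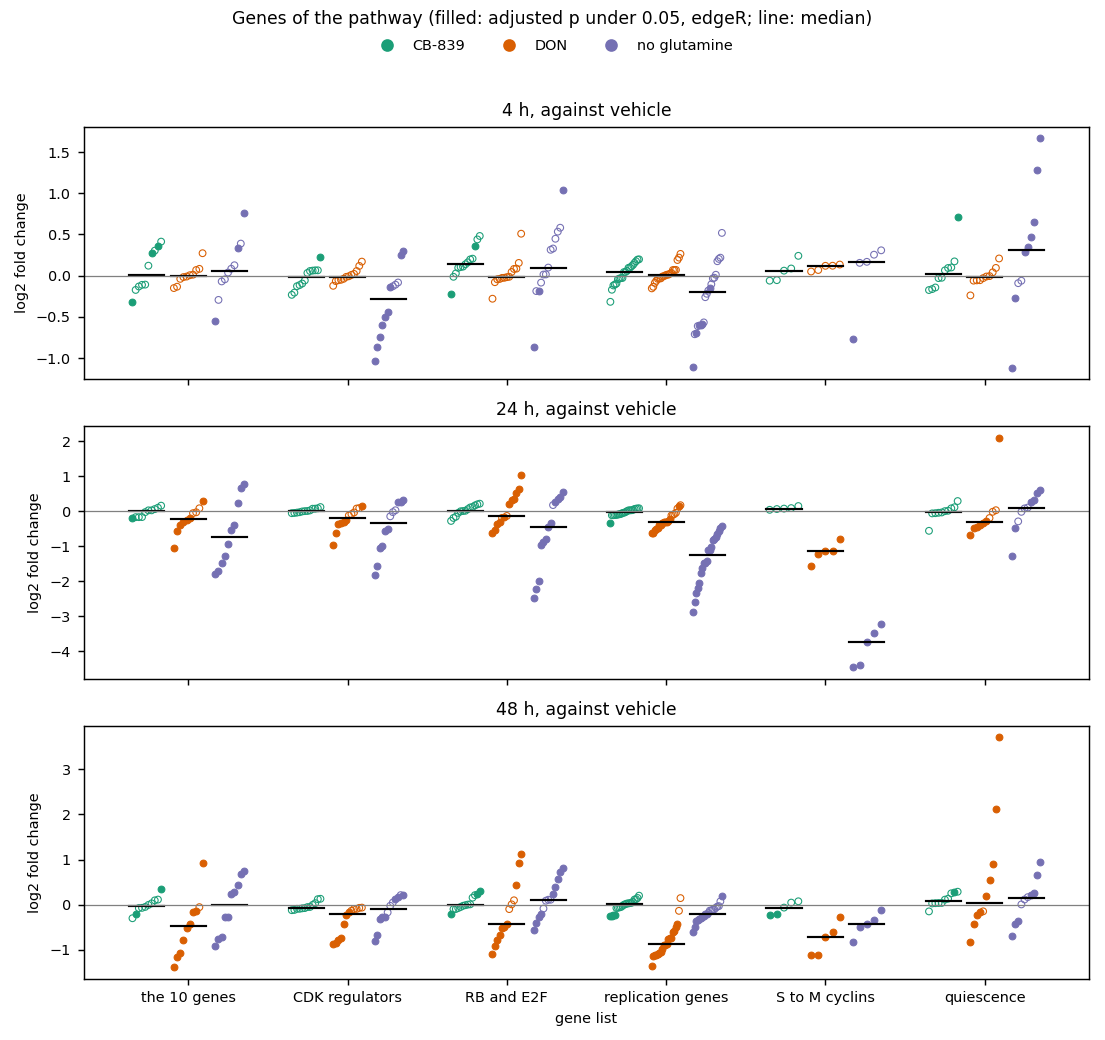
log2 fold change against vehicle at 4, 24 and 48 h (panels) of each gene of 6 lists under CB-839, DON and without glutamine, filled where the adjusted p was under 0.05, with the list's median as a line. All 20 replication genes and all 5 S to M phase genes lie below 0 without glutamine at 24 h.

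The remaining genes of the same families were Ccnd1, Cdkn1a, Cdkn1c, Cdkn2a and Cdkn2b. Cdkn1a, whose product p21 inhibits CDK2, was the only one of these above 2 CPM in any group. It had 109.7 ± 10.4 CPM in glutamine-free cells, 11.1 ± 2.65 CPM under DON and 51.9 ± 2.80 CPM under CB-839 at 24 h, against 58.4 ± 24.9 CPM in vehicle. At 48 h it had 118 ± 9.32 CPM without glutamine, 25.3 ± 2.45 CPM under DON and 29.7 ± 1.75 CPM under CB-839, against 73.6 ± 11.3 CPM in vehicle. Cdkn1a was called higher without glutamine at all 3 times and lower under DON at 24 h (log2 fold change -2.32 ± 0.24, adjusted p = 7.98e-07) and 48 h (log2 fold change -1.44 ± 0.10, adjusted p = 1.94e-10), so that it and Cdkn1b moved in opposite directions under DON. CB-839 lowered it at 48 h (log2 fold change -1.31 ± 0.10, adjusted p = 3.6e-07) and not past the threshold at 24 h (log2 fold change -0.17 ± 0.22, adjusted p = 0.745), and that change of effect was called (interaction -1.13 ± 0.25, adjusted p = 0.00944). Cdkn2a rose under DON at 24 h, at 1.46 ± 0.349 CPM against 0.238 ± 0.0826 CPM in vehicle (log2 fold change 2.67 ± 0.33, adjusted p = 1.1e-06), a very low level in both.

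Over the 13 group means of log2 CPM, the genes with the pattern most like each member were searched among 8072 genes, as a description in which the points share a course of activation. Pearson r was 0.993 for Ccne1 with Gmnn, which encodes the licensing inhibitor geminin. For Cdk2 it was 0.996 with Atad5, a clamp unloader, and 0.995 with Cdc45, a helicase subunit. Ccne2 was most like Dna2 (0.991), a replication nuclease. Ccnd3 was most like Slc37a4 (0.996), Cdkn2c like Hmgn5 (0.993), Ccnd2 like Ube2a (0.991), Cdkn2d like Sptbn1 (0.985) and Cdkn1b like Abca7 (0.985). Cdk4 was most like Hdgf (0.978), Slc25a39 (0.975) and the chaperone gene Hsp90ab1 (0.973). Cdk6 had the least close match, Alkbh3 at 0.905.

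CUT&RUN, which cuts DNA where an antibody sits on chromatin, gave 1 deposited peak list per treatment and mark at 48 h, merged over replicates by the authors, so that no test between treatments was made. Acetylated H3K27 (H3K27ac) marks active promoters and enhancers. A peak of that mark lay within 1000 bases of the annotated start of 8 of the 10 genes in the glutamine-free list, where 28.6% of the genes tested had one, and of 9 in the vehicle list, where 42% had one. The lists held 6687 and 9681 peaks. In the DON list, with 33 peaks, and the CB-839 list, with 117, none of the 10 had one. Of all genes tested 0.21% had one in the DON list and 0.643% in the CB-839 list, so that these lists are too short to compare.

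**Figure D5:**
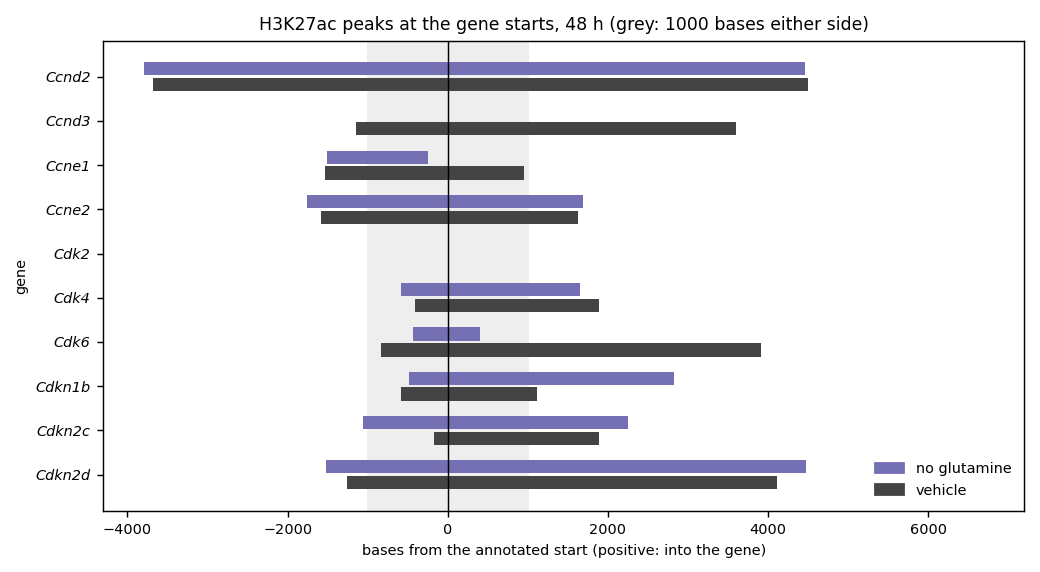
Extent of the H3K27ac peaks at the starts of the 10 genes in the glutamine-free and vehicle lists at 48 h, in bases from the annotated start along the direction of transcription, with 1000 bases on either side shaded. At its annotated start Ccnd3 has a peak only in the vehicle list, and Cdk2 has none in either.

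The start peak of Ccnd3 was in the vehicle list only, running from -1141 to 3595 around the start. The glutamine-free list held 5 other peaks over the gene, of which the one with the highest signal, 20.5 as given by the authors, ran from 5950 to 15518 downstream and had rank 67 by signal in its list. The vehicle list had 2 peaks that overlap that stretch, with signals of 11.6 and 11.5. They spanned 4825 and 5153 bases, against 9569 bases for the glutamine-free peak. The lists were made apart and no common scale is known, so these signals do not measure a difference in acetylation. At Cdk6 the start peak ran from -432 to 407 in the glutamine-free list and from -835 to 3917 in the vehicle list, and further peaks lay inside the gene, 5 and 3 of them. The start peaks of Ccnd2 were of like extent, 8266 bases in the glutamine-free and 8186 bases in the vehicle list. Cdk4, Ccne1, Ccne2, Cdkn1b, Cdkn2c and Cdkn2d each had a start peak in both lists.

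The repressive mark H3K27me3 had no start peak at any of the 10 genes in any of the 4 lists, which held 8795 peaks without glutamine, 3533 under DON, 12417 under CB-839 and 13556 in vehicle. Of the genes tested, 7.2% had such a peak without glutamine, 3.74% under DON, 11% under CB-839 and 10.6% in vehicle. Relatives with few or no counts had one: Ccnd1 and Cdkn2a had a start peak of this mark in all 4 lists, Cdkn2b in all but the DON list, and Cdkn1c in the DON and vehicle lists. Cdkn1a, which had a clear RNA level, had one in the CB-839, DON and vehicle lists and not in the glutamine-free list. No such relative had an H3K27ac start peak in any list.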

How the data were processed

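The labels' protocols describe stranded RNA libraries from OT-I CD8+ T cells and CUT&RUN for H3K27ac and H3K27me3 at 48 h. The authors deposited a table of raw counts of reads per gene which, per the file headers, came from featureCounts 2.0.1 over exons of GENCODE M25 in paired mode, with no strand option in the recorded command. The submitters' processing notes also name FastQC, STAR, Bowtie2, MACS2, deepTools and mm10. The deposited peak lists have the layout of irreproducible discovery rate (IDR) output from 2 replicates, with a signal (the sum of both replicates) and the -log10 of the IDR per peak, as the values show, and hold peaks with an IDR up to 0.05. The 37 mitochondrial genes had 0 counts in all 52 libraries.

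From the counts, edgeR 4.0.16 (limma 3.58.1, R 4.3.3) was run with TMM scaling, filterByExpr by group and the quasi-likelihood test, 1 fit for the 16 libraries of each time, 1 for unstimulated and vehicle cells, and 1 over 24 and 48 h for the change of effects. Benjamini-Hochberg adjustment ran over all genes tested, errors are standard errors (log2) or SDs over 4 libraries, 95% intervals are normal intervals from the standard error, and every p-value is two-sided. The script was tested on simulated counts. CPM used TMM scaling over all 52 libraries, and levels per kilobase used exon length. Library totals of 25626587 to 51005409 counts limit the precision at genes of a few CPM. A peak counted as a start peak if it reached within 1000 bases of the annotated start. Peaks were merged before deposit, so peak sets had no replicates.

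Replicate letters were compared over 8869 genes through the correlation of deviations from the group means. Every pair correlated over 0.1 for CB-839 and vehicle at 4 h (0.51 to 0.69) and 24 h (0.59 to 0.74), for DON and vehicle at 4 h (0.21 to 0.69) and for DON and CB-839 at 48 h (0.16 to 0.30), where the letters were taken to pair libraries. No label gives the letters a meaning.

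The genes named are the 10 members in every comparison, from each list up to 4 genes with the smallest adjusted p under 0.05, the 5 relatives of the family always, and the genes most like each member. The members and lists were chosen with earlier results of these data known. Alternatives were RLE size factors, library totals, no filter, DESeq2 1.42.0, the letter as a block, other sets of libraries in the fit, each library left out, and other peak windows and thresholds. List counts under other scalings and without the libraries that stood apart were added after seeing the data.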

Additional observations from a re-analysis of the deposited data

Results flagged for a closer look

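In 9 of the 130 sets of 4 libraries (10 genes in 13 groups), 1 library lay far from the other 3 by Dixon's criterion, and chance alone gives about 1 in 20. Ccne1 had 5.45 CPM in glutamine-free library C at 4 h, where the others held 0.769 to 1.41. Ccne2 had 48.7 CPM in DON library D at 24 h (others 35.4 to 36.2), 13.4 CPM in glutamine-free library D at 24 h (others 9.82 to 10.1) and 4.11 CPM in vehicle library D at 4 h (others 3.67 to 3.72). Cdk2 had 117 CPM in CB-839 library D at 24 h, close to the 115.7 to 115.9 CPM of the others. Cdkn1b had 53.6 CPM in glutamine-free library D at 48 h (others 44.5 to 45.8). Cdkn2c had 2.29 CPM in vehicle library C at 4 h (others 1.09 to 1.22). Cdkn2d had 4.55 CPM in CB-839 library C at 4 h (others 2.58 to 2.88) and 26.6 CPM in glutamine-free library D at 48 h (others 29.99 to 30.5). Library D thus held 6 of the 9 values, in 5 groups.

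The effects against vehicle differed between 48 and 24 h by interaction tests in the edgeR fit. Under DON the difference of the log2 effects, 48 h minus 24 h, was -0.55 for Ccnd2, -0.79 for Ccne1, -1.48 for Ccne2, -0.77 for Cdk6 and -0.38 for Cdkn2c, and was 0.63 for Cdkn1b and 0.98 for Cdkn2d. Without glutamine it was -0.39 for Ccnd2, 0.73 for Ccnd3, 0.78 for Ccne1, 1.08 for Ccne2, 0.77 for Cdk2, 0.51 for Cdkn1b, 1.39 for Cdkn2c and 0.99 for Cdkn2d. In the fit of all 52 libraries those of Ccne1 and Cdkn1b without glutamine and of Cdkn2c under DON were not called.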

How the results depend on the processing

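Over 26 comparisons, the 260 gene results (163 called) were recomputed in 4400 settings. The side of the threshold was kept in 4252, of which 143 turned sign with neither value called (no such value was above 0.39 as reported). A call was lost in 106 and gained in 37, and 5 results with a call turned sign, all with library totals as scaling: Cdk2 under DON against vehicle at 24 h (0.164) and 48 h (0.0588), Cdk4 under DON against vehicle at 48 h (0.0381), and Cdk2 (0.0470) and Cdk4 (0.17) under DON against CB-839 at 24 h. Fitting all 52 libraries together lost 25 calls, and RLE size factors and DESeq2 lost 2 and 1. The cause of these changes was not tested.

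Fitted on the libraries compared with the replicate block, the count of called members was 5 for CB-839 and 1 for DON at 4 h, and 5 for CB-839 at 24 h and 0 at 48 h. The block on all libraries of a time gave 2 for CB-839 at 24 h, and the block changed no other count by over 1.5 times. The libraries compared without the block gave 2 for glutamine-free against DON at 4 h and 1 for CB-839 at 48 h. CB-839 at 24 h called 0 without the filter, and 0 at both 24 and 48 h in the fit of all 52 libraries, which also gave 5 for glutamine-free cells against CB-839 and 5 against DON at 48 h. Leaving out 1 library gave 2 to 5 for glutamine-free against DON at 4 h, 0 to 1 for CB-839 at 24 h and 1 to 4 at 48 h. None of these counts has the share of all genes called in the same setting beside it. A stricter IDR of 0.01 left no H3K27ac peak in the DON list and so gave no value. Scaling cancels in a share within a pair. Leaving out 1 of 4 libraries cannot move a mean beyond the SD of the 4. These settings could therefore not show how far the shares depend on the processing. Depth limits Ccne1, Ccne2, Cdkn2c and Cdkn2d most at 4 h, when they had few CPM.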
